A study of Mus musculus with 4 samples.

Results

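The subunits of the mitochondrial respiratory chain and ATP synthase that are encoded in the nucleus were followed in differentiating leukemic and non-leukemic mouse erythroid cells. Members were array features annotated to exactly 1 gene whose symbol belongs to the Nduf subunit, Sdha to Sdhd, Uqcr, Cyc1, Cox4 to Cox8 or Atp5 name series. The rule used names only and no measured value. The rule found 106 of 28944 tested features, which stood for 82 of 19938 genes. They comprised 33 genes of complex I, 4 of complex II, 9 of complex III, 19 of complex IV and 17 of complex V, the ATP synthase. Ndufa4 and Ndufa4l2 were placed with complex IV, where the Ndufa4 protein is known to sit. A gene with more than 1 feature was represented by the brightest of them over the 4 arrays.

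RNA of 4 cultures was hybridised to Affymetrix Mouse Gene ST arrays, with 1 array for each culture. The MEL group was 2 cultures, lettered A and B, of an established erythroleukemia line, grown in DMEM with FBS, L-glutamine and puromycin and differentiated with 17b-estradiol for 48 hours. The ES-EP group was 2 cultures of erythroid progenitors derived from embryonic stem cells, expanded in StemPro34 with Epogen, hIGF-1, dexamethasone, murine SCF and b-mercaptoethanol. These were differentiated for 24 hours in StemPro34 with Epogen, insulin, mifepristone and b-mercaptoethanol. Line, medium, inducer and hours differed together, so their parts in any difference cannot be told apart. Undifferentiated cultures were not analysed here, and no value below is a change during differentiation. The design text speaks of duplicate cultures of each type, so the variation that the p-values see is that between such duplicates.

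Complexes I and II take electrons from NADH and succinate and pass them to ubiquinone, complex III carries them on to cytochrome c, and complex IV hands them to oxygen. Complexes I, III and IV pump protons across the inner membrane, and complex V lets them flow back to make ATP. Complex II is also an enzyme of the citric acid cycle. Maturing erythroid cells depend on mitochondria for the first and last steps of heme synthesis and clear these organelles as reticulocytes. Several complex IV subunits exist in a common form and in forms best known from muscle, testis or hypoxic cells.

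Most subunit genes differed by less than 1.5-fold between the lines, as most genes did, and a few single subunits differed by more than 2-fold. Values are log2 signals, a difference is MEL minus ES-EP, and a gene passed at an adjusted p under 0.05 in limma. Of the 82 genes, 22 were higher in MEL, 28 were lower and 32 did not pass. Over all genes, 21.8% were higher, 36.9% were lower and 58.6% passed in either direction, where 26.8%, 34.1% and 61.0% of the members did. In 67 of the 82 genes the difference was under 1.5-fold, as in 14443 of all 19938 genes, and in 78 it was under 2-fold. The median size of the difference was 0.31 in the members and 0.33 in all genes. The members were brighter than most genes, so features with a mean signal below the median were also left out. Among the brighter features, the median size was 0.31 in 80 members and 0.44 in 10646 genes. There, 30.0% of members were higher and 33.8% lower, beside 34.7% and 37.1% of genes. Differences under 1.5-fold were found in 65 of those 80 members and 6528 of those 10646 genes. At 1.5-fold or more, 8 members were higher and 7 lower, where 13.0% and 14.5% of all genes were. At 2-fold or more, 3 were higher (Cox6b2, Ndufs5 and Cox7a1), where 7.38% of all genes were, and 1 was lower (Atp5mpl), where 4.93% were. The members' median difference was -0.02, with quartiles of -0.37 and 0.24, beside -0.14 for all genes.

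**Figure D1:**
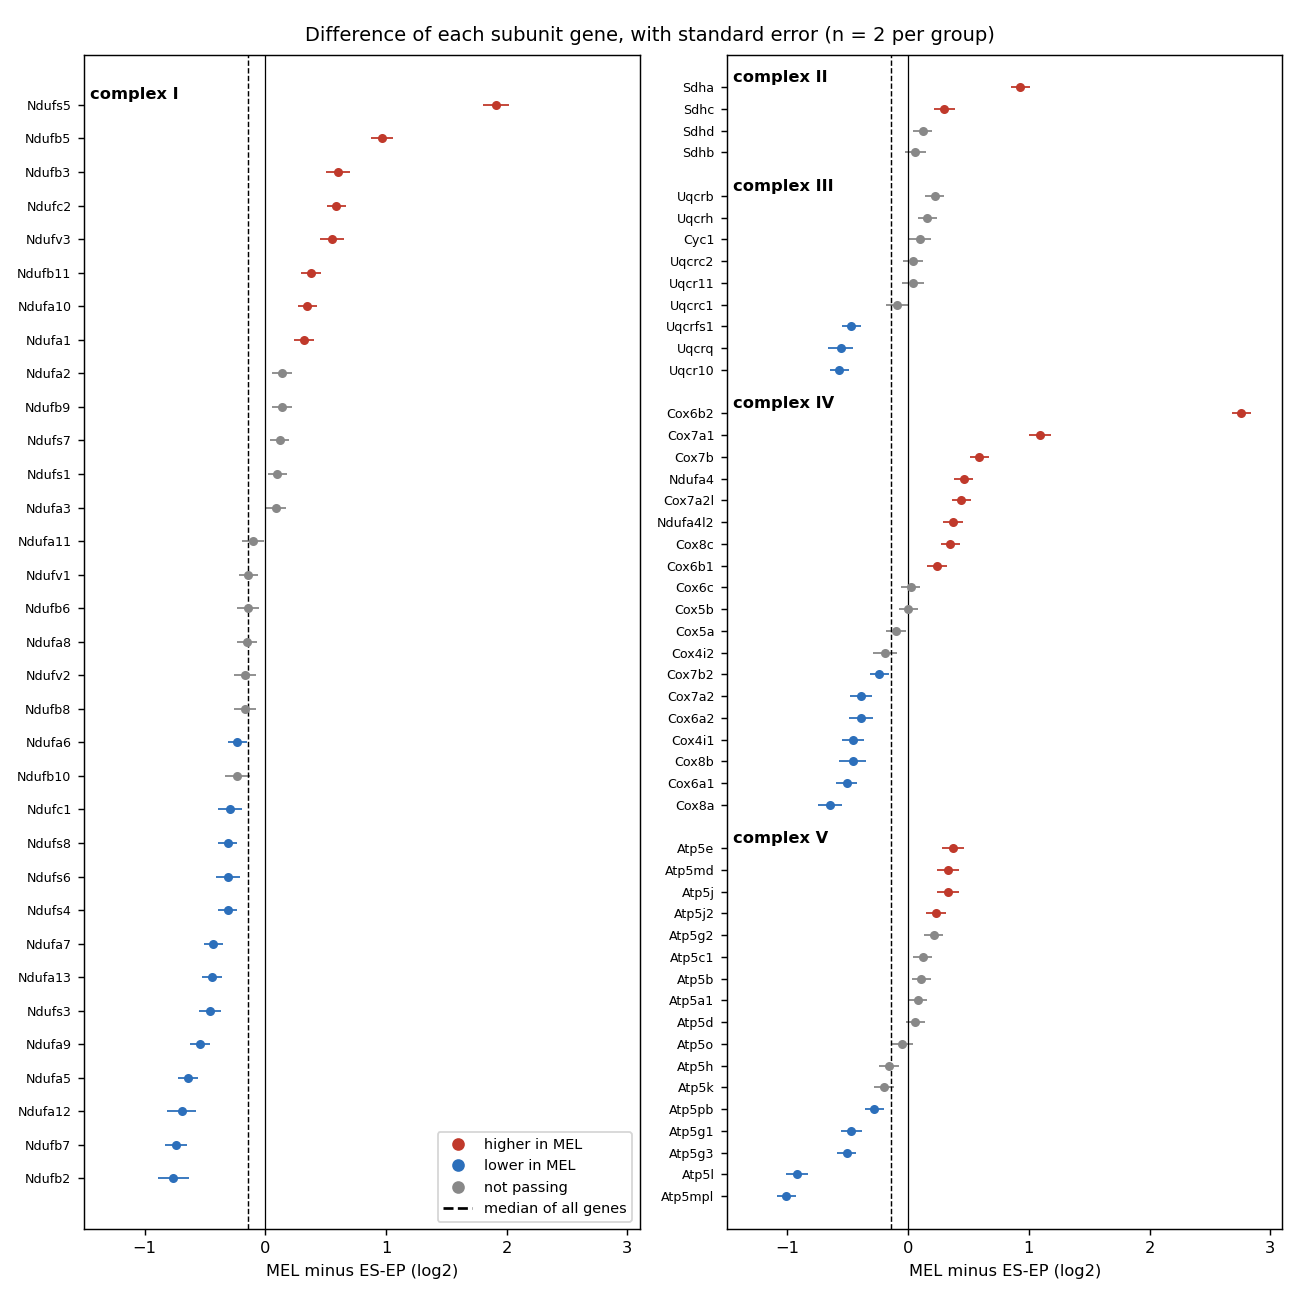
Difference (MEL minus ES-EP, log2, horizontal axis) of each of the 82 subunit genes, by complex, as points with standard errors from limma (n = 2 arrays per group). Red genes passed as higher in MEL (22), blue as lower (28) and grey did not pass (32). The dashed line is the median of all genes (-0.14), and Cox6b2 (2.76) and Ndufs5 (1.91) stand furthest to the right.

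The duplicates set the scale for these differences. Across the members, the cultures of a group differed by a median of 0.05 in MEL and 0.07 in ES-EP, and by at most 0.25 and 0.35. Both MEL arrays lay above both ES-EP arrays in 37 members and below them in 39, and the groups overlapped in 6. Among all genes, 28.7% lay above and 51.5% below. The duplicates also deviated in a shared direction. In MEL A, 64 of the 82 genes were lower than in MEL B, where 52.7% of all genes were. In ES-EP A, 60 of the 82 were higher than in ES-EP B, where 48.9% of all genes were. The median member signal was 9.96 and 10.03 in MEL A and B, and 10.25 and 10.16 in ES-EP A and B.

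The arrays' overall scaling moved the balance of higher and lower calls by more than 10 percentage points. The median of all genes was -0.14 as deposited, -0.02 after quantile normalization, -0.07 after centring on array medians and 0.03 after cyclic loess. With quantile normalization, 32 members were higher and 21 lower, beside 26.7% and 28.6% of all genes. With cyclic loess, 32 were higher and 20 lower, beside 29.9% and 24.1% of all genes. With centring, 22 were higher and 21 lower, beside 23.0% and 28.8%. Each of the 22 higher genes kept its call under these scalings, and 19 of the 28 lower genes did. All of these scalings moved the median of all genes upward, so higher and lower calls were not put to an even test. The lower genes that lost the call under at least 1 scaling were Ndufa6, Ndufc1, Ndufs4, Ndufs6, Ndufs8, Cox7a2, Cox7b2, Cox8b and Atp5pb. The median of the members was -0.02 as deposited and positive under the other scalings (0.07, 0.04 and 0.09 in the order above). No call turned from one direction to the other.

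**Figure D2:**
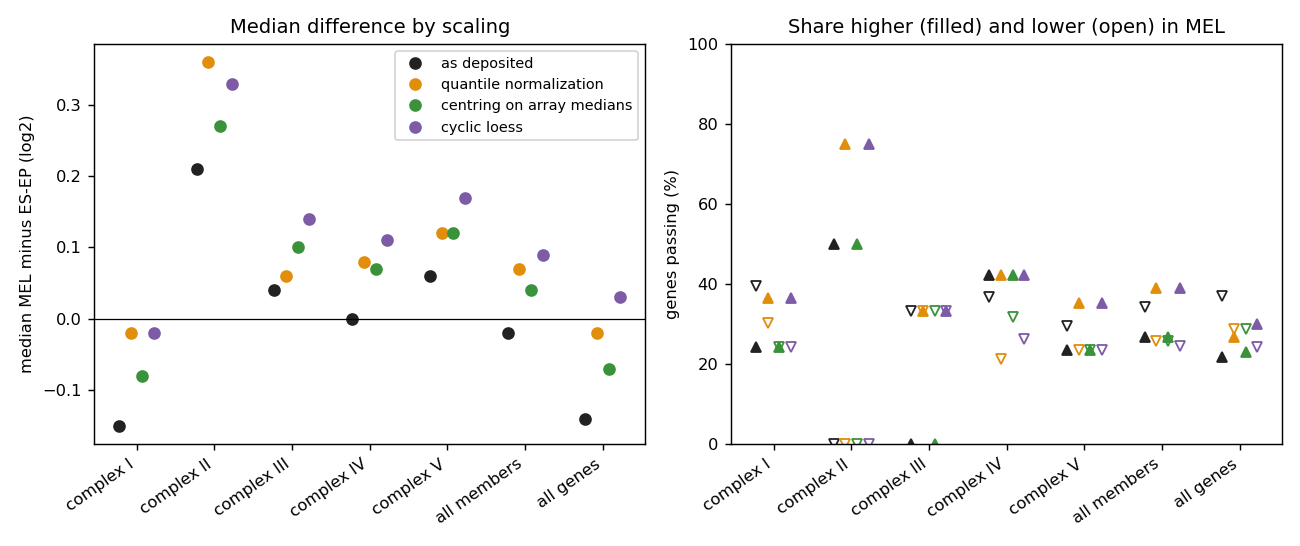
Median difference (MEL minus ES-EP, log2, left) and share of genes that passed as higher (filled upward triangles) or lower (open downward triangles) in MEL (percent, right), for each complex, all 82 members and all 19938 genes. Colours mark the deposited values and 3 other scalings of the arrays. Complex I (-0.15 to -0.02) lay close to all genes (-0.14 to 0.03) under each scaling shown, and complex II was above 0 (0.21 to 0.36).

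The 6 promoters below belong to the common and tissue forms of subunits 6b and 7a and to the leading genes of complexes I and II. The tissue forms Cox6b2 and Cox7a1 had the largest differences of complex IV, and their common forms are shown beside them. Each promoter is the 250 bases before the start of the gene on its own strand, from RefSeq in build GRCm38.p6. Cox6b2 lies at chr7:4753095-4753344 (minus strand), Cox6b1 at chr7:30626115-30626364 (minus) and Cox7a1 at chr7:30183921-30184170 (plus). Cox7a2 lies at chr9:79759854-79760103 (minus), Ndufs5 at chr4:123718187-123718436 (minus) and Sdha at chr13:74350241-74350490 (minus). Capitals mark matches, on either strand, to 7 motifs known as binding elements of factors. These are the palindromic NRF1 element, the ETS motif CCGGAAG (GABP is of that family), the CCAAT box, the GATA motif AGATAA, the Sp and KLF motif GGGCGG, the ERR motif AAGGTCA and the YY1 motif ATGGCGG.
Cox6b2: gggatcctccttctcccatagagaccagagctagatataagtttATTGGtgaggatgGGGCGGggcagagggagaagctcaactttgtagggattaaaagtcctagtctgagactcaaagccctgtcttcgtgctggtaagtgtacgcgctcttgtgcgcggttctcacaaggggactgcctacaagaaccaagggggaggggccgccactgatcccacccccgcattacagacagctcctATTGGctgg
Cox6b1: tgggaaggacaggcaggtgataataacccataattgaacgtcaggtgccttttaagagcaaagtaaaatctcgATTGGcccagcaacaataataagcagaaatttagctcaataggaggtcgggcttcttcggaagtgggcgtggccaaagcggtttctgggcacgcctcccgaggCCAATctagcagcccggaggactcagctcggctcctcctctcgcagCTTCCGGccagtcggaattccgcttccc
Cox7a1: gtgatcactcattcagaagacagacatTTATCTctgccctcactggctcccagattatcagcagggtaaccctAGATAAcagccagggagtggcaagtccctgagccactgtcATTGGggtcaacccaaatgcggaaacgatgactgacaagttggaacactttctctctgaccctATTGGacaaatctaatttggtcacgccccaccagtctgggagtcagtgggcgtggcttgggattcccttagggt
Cox7a2: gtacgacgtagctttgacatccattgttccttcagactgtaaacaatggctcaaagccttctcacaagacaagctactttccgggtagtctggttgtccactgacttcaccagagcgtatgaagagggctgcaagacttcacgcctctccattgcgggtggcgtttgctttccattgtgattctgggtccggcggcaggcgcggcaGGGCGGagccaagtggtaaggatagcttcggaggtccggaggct
Ndufs5: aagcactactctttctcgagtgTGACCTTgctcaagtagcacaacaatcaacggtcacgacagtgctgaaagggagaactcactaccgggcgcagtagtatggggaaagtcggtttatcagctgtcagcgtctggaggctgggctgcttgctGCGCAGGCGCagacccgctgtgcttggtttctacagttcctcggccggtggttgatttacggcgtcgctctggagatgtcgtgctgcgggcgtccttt
Sdha: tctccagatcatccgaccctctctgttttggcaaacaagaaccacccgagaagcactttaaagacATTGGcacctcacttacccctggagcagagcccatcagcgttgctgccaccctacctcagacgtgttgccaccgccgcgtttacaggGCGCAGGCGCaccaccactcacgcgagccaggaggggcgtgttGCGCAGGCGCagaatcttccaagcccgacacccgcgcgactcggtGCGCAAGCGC

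Sdha had 3 NRF1 matches, which begin 98, 55 and 10 bases before the start, and a CCAAT match, and Ndufs5 had 1 NRF1 match, at 98, and an ERR match, at 228. The upstream window of Cox6b2 held 2 CCAAT matches (206 and 9 bases before the start) and a GGGCGG, and that of Cox6b1 held an ETS match at 28 bases and 2 CCAAT matches. Cox7a1 had 2 CCAAT and 2 GATA matches, and Cox7a2 had 1 GGGCGG. None of the motifs contains another. A window of 300 bases, which adds 50 after the start, was held for 66 of the 82 genes. Of these, 16 (24.2%) held the NRF1 letters, beside 5.19% of 27025 genes with such a window, and 17 (25.8%) the ETS letters, beside 9.93%. The YY1 letters were in 15.2% beside 4.69%, and the ERR letters in 10.6% beside 5.38%. CCAAT (43.9% beside 41.1%) and GGGCGG (40.9% beside 38.2%) were at the share of all genes, and GATA was below it (7.58% beside 12.7%). By call, the NRF1 letters were in 2 of 19 higher, 5 of 24 lower and 9 of 23 non-passing genes, and CCAAT in 12, 12 and 5. A match describes the letters of the window and shows no binding.

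Complex I, the NADH dehydrogenase, held the gene with the second largest difference among the members, beside many small ones. Of its 33 genes, 8 were higher, 13 were lower (39.4%, beside 36.9% of all genes) and 12 did not pass, and the median was -0.15, close to that of all genes (-0.14). The 8 higher genes were 24.2%, beside 21.8% of all genes. After centring 8 were higher and 8 lower, after quantile normalization 12 and 10, and after cyclic loess 12 and 8. The loess shares were 36.4% and 24.2%, beside 29.9% and 24.1% of all genes. As deposited, the higher genes were all accessory subunits, which surround the catalytic core. Ndufs5, an accessory subunit on the intermembrane space side, read 9.54 and 9.46 in MEL A and B and 7.74 and 7.45 in ES-EP A and B. The lowest MEL array was well above the highest ES-EP array. The difference was 1.91 ± 0.11 (SE), or 3.75-fold, with an adjusted p of 1.08e-05 in limma. Ndufb5, of the membrane arm, read 11.03 and 11.13 in MEL and 10.18 and 10.05 in ES-EP, a difference of 0.97 ± 0.09 or 1.96-fold (adjusted p = 0.000109). This exceeded 2-fold under the quantile (1.11), centring (1.03) and loess (1.09) scalings. The other higher genes were Ndufb3, Ndufc2, Ndufv3, Ndufb11, Ndufa10 and Ndufa1, at 0.32 to 0.60. Of these 6, Ndufb11, Ndufa10 and Ndufa1 did not pass when ES-EP culture B was left out, and the last 2 also without ES-EP culture A.

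As deposited, the lower genes of complex I outnumbered the higher ones, and they were closer together. Ndufb2, a small accessory subunit of the membrane arm, read 6.86 and 7.05 in MEL and 7.89 and 7.54 in ES-EP. Its ES-EP cultures differed by the most of any member, and yet both lay above MEL. The difference was -0.76 ± 0.13 (adjusted p = 0.00231). Ndufb7, another membrane-arm subunit, read 9.48 and 9.49 in MEL against 10.29 and 10.16 in ES-EP, a difference of -0.74 ± 0.09 (adjusted p = 0.00033). The remaining lower accessory genes ran from Ndufa12 (-0.69) and Ndufa5 (-0.64) to Ndufa6 (-0.23). Ndufa6 had an adjusted p of 0.0453 and did not pass when any 1 of the 4 cultures was left out.

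The core subunits of complex I include those that carry the flavin and the iron-sulfur clusters, though not every core subunit holds one. Of the 6 measured, 2 were lower (Ndufs3 and Ndufs8), 0 were higher and 4 did not pass. Their median was -0.16, beside -0.15 over the 27 accessory genes. Ndufs1, which holds several of the clusters, read 11.07 and 11.17 in MEL and 11.01 and 11.02 in ES-EP. The arrays did not overlap, but the difference of 0.10 (95% interval -0.10 to 0.30) did not pass. Ndufv1, which binds NADH and the flavin, read 10.38 and 10.42 in MEL against 10.52 and 10.57 in ES-EP, a difference of -0.14 (-0.33 to 0.05, adjusted p = 0.177). Ndufs3, at -0.46, was lower in both of its features (-0.46 and -0.60) and under the 4 scalings. Ndufs8 (-0.31) was lower as deposited but under none of the other 3 scalings, nor without MEL B, ES-EP A or ES-EP B. Under quantile and loess scaling, Ndufs1 (0.25 and 0.21) and Ndufs7 (0.27 and 0.24) passed as higher, and as deposited neither would have at an unadjusted p under 0.05 in limma. The genes of complex I that did not pass were Ndufa2, Ndufa3, Ndufa8, Ndufa11, Ndufb6, Ndufb8, Ndufb9, Ndufb10, Ndufs1, Ndufs7, Ndufv1 and Ndufv2, between -0.23 and 0.14. Ndufa2 and Ndufb9 passed as higher under quantile and loess scaling and Ndufb10 as lower under quantile scaling.

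**Figure D3:**
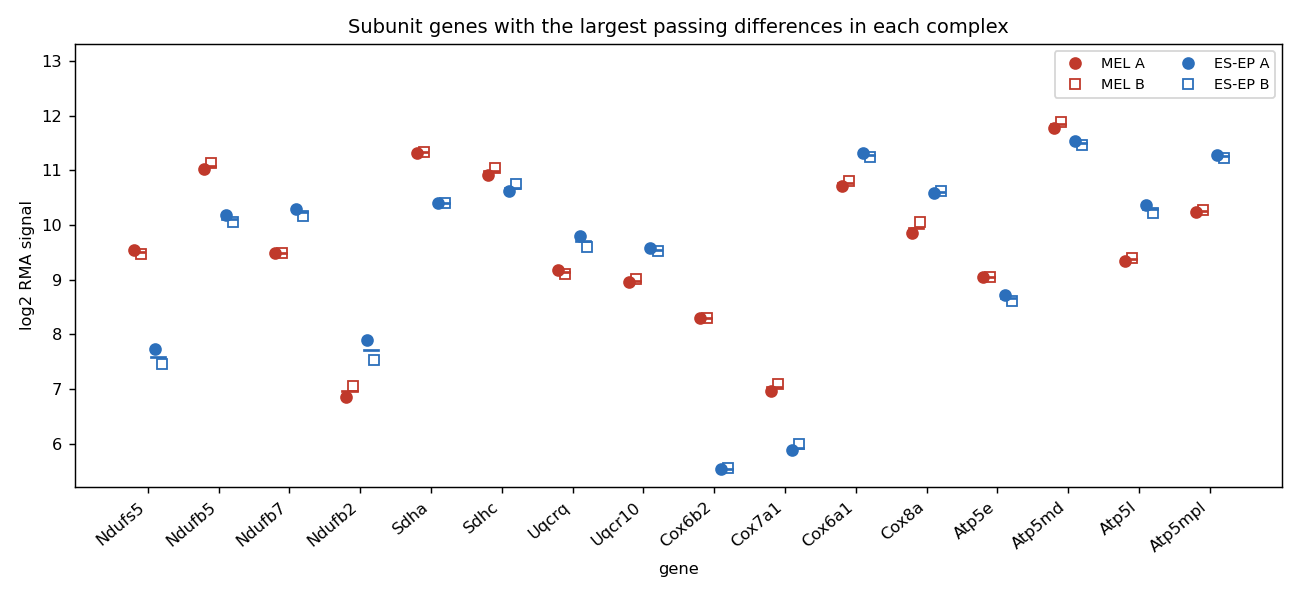
Log2 RMA signal (vertical axis) in each of the 4 arrays for the genes with the largest passing differences of each complex, up to 2 in each direction. Red marks MEL, blue ES-EP, circles culture A, squares culture B and short lines the group means. The duplicates lie within 0.35 of each other, and the groups do not overlap in any gene shown; heights of different genes come from different probes and are not comparable.

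Complex II, succinate dehydrogenase, had no lower gene. Of its 4 genes, Sdha and Sdhc were higher and Sdhb and Sdhd did not pass, with a median of 0.21 and the same sign in all 4 under each scaling. Among all genes, 21.8% were higher and 36.9% lower. Sdha, the flavoprotein that oxidises succinate, read 11.32 and 11.34 in MEL and 10.40 and 10.40 in ES-EP. The gap between the groups was many times the gap between the duplicates. The difference was 0.93 ± 0.08, or 1.91-fold (adjusted p = 6.69e-05), and exceeded 2-fold under quantile (1.09) and loess (1.05) scaling. Sdhc, a membrane anchor, read 10.91 and 11.05 in MEL against 10.62 and 10.74 in ES-EP, a difference of 0.30 ± 0.09 (adjusted p = 0.0302). Its call was lost without MEL B, ES-EP A or ES-EP B. Sdhb, the iron-sulfur subunit that takes electrons from Sdha, read 9.42 and 9.57 in MEL and 9.42 and 9.45 in ES-EP, which overlap. Its difference was 0.06 (95% interval -0.15 to 0.27). Sdhd, the other anchor, was at 0.12 and passed as higher under quantile (0.28) and loess (0.24) scaling. The catalytic subunits Sdha and Sdhb thus gave intervals that do not meet, 0.75 to 1.12 and -0.15 to 0.27; the contrast between them was not tested.

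Complex III, the cytochrome bc1 complex, had 0 genes higher, 3 lower and 6 that did not pass as deposited, with a median of 0.04. The lower genes were 33.3%, where 36.9% of all genes were lower and 21.8% higher. Under quantile and loess scaling 3 were higher (Cyc1, Uqcrb and Uqcrh) and the same 3 were lower. At an unadjusted p under 0.05 in limma 1 gene (Uqcrb) was higher, and with an intensity trend in the prior 2 were. Uqcr10, a small membrane subunit, read 8.95 and 9.01 in MEL and 9.58 and 9.52 in ES-EP, a difference of -0.57 ± 0.08 (adjusted p = 0.000994). Uqcrq, the ubiquinone-binding small subunit, read 9.17 and 9.11 in MEL and 9.80 and 9.60 in ES-EP, a difference of -0.56 ± 0.10 (adjusted p = 0.00229). Both groups were separate in each of these genes by more than the duplicates' spread. Uqcrfs1, the Rieske iron-sulfur protein, read 8.73 and 8.84 in MEL and 9.25 and 9.26 in ES-EP, a difference of -0.47 ± 0.08 (adjusted p = 0.00281). The other redox carrier, cytochrome c1 (Cyc1), read 11.13 and 11.25 against 11.08 and 11.09, and its 0.10 (-0.10 to 0.30) did not pass. Uqcrc1, a core protein, read 11.21 and 11.34 in MEL against 11.34 and 11.38 in ES-EP, and its -0.09 (-0.29 to 0.12) did not pass either. Uqcrc2 and Uqcr11 were both at 0.04, Uqcrh at 0.16 and Uqcrb at 0.22. Uqcrb had 3 features that disagreed, at 0.22, 0.44 and -0.23, of which the middle one passed.

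Complex IV, cytochrome c oxidase, had the widest range of the 5 complexes. Of its 19 genes, 8 were higher, 7 were lower and 4 did not pass, with a median of 0.00 and differences from -0.65 to 2.76. The shares were 42.1% higher and 36.8% lower, beside 21.8% and 36.9% of all genes. Cox6b2, the form of subunit 6b best known from testis, had the largest difference of all 82 genes. It read 8.30 and 8.30 in MEL and 5.53 and 5.55 in ES-EP. The difference was 2.76 ± 0.08, or 6.77-fold, with an adjusted p of 3.84e-07. With no detection calls in the table, the ES-EP level was not told from background, and the fold may understate the difference. Its common counterpart Cox6b1 read 10.12 and 10.09 in MEL and 9.90 and 9.84 in ES-EP, a difference of 0.24 ± 0.08 (adjusted p = 0.0392). The Cox6b1 call was lost when any 1 of the 4 cultures was left out, and the intervals of the pair were 2.57 to 2.95 and 0.05 to 0.43. Both forms were thus on the MEL side, by very unequal amounts.

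The muscle and common forms of subunit 7a differed in opposite directions. Cox7a1, best known from heart and skeletal muscle, read 6.96 and 7.10 in MEL and 5.88 and 5.99 in ES-EP. Its ES-EP level was not told from background. The difference was 1.09 ± 0.09, or 2.13-fold (adjusted p = 6.32e-05), and was 1.03 to 1.17 under the 4 scalings. Cox7a2, the common form, read 9.81 and 9.83 in MEL and 10.29 and 10.14 in ES-EP, a difference of -0.39 ± 0.09 (adjusted p = 0.00772). The Cox7a2 call was lost under quantile normalization (-0.24) and without ES-EP culture A. Cox7a2l, a factor that joins complexes III and IV rather than an oxidase subunit proper, read 10.00 and 10.01 in MEL and 9.59 and 9.55 in ES-EP. It was higher in both of its features, by 0.44 and 0.77. Of 10 striated muscle markers, 2 were higher (Tnni3 and Des), 2 lower and 6 did not pass. Their summed log2 level was between 60.0 and 61.0 on the MEL arrays and between 57.8 and 58.4 on the ES-EP arrays, with Tnni3 alone at 3.05. Their part in the Cox7a1 result was not tested.

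The other paired forms of complex IV showed smaller differences. Cox4i1, the largest nuclear subunit, read 10.67 and 10.60 in MEL and 11.17 and 11.03 in ES-EP and was lower by -0.46 ± 0.09 (adjusted p = 0.00406). Its hypoxic counterpart Cox4i2 read 6.13 and 5.88 against 6.20 and 6.17, and its -0.19 did not pass (it passed as lower without MEL culture A). Cox6a1 read 10.72 and 10.81 against 11.32 and 11.24, a difference of -0.51 ± 0.09 (adjusted p = 0.00201). The muscle form Cox6a2, at 6.30 and 6.09 against 6.53 and 6.63, was on the same side at -0.39 (adjusted p = 0.0143 in limma). Its call was lost without MEL B or ES-EP B, and its level was near the arrays' medians (5.78 to 5.91). Subunit 8 divided. Cox8a, the common form, read 9.85 and 10.05 in MEL and 10.59 and 10.62 in ES-EP and was lower by -0.65 ± 0.10 (adjusted p = 0.00101). Cox8b, a muscle form, read 4.73 and 4.96 against 5.41 and 5.20 (-0.46, adjusted p = 0.0117). Cox8c, a testis form, read 6.10 and 6.10 against 5.79 and 5.71 (0.35, adjusted p = 0.00901). The Cox8b call was lost under quantile and loess scaling and without MEL A or ES-EP A, and the Cox8c call without ES-EP B. Cox8b was also among the dim features, and the levels of Cox4i2, Cox6a2 and Cox8c were not told from background.

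Subunit 7b and the Ndufa4 pair completed the set. Cox7b read 11.73 and 11.68 in MEL and 11.14 and 11.07 in ES-EP and was higher by 0.59 ± 0.08 (adjusted p = 0.00079), with its second feature at 0.54. Cox7b2, a testis form, was near the bottom of the signal range at 3.75 and 3.78 against 3.99 and 4.02. Its -0.24 (adjusted p = 0.0379) was -0.05 under quantile and loess scaling and did not pass there. Ndufa4 read 12.15 and 12.13 in MEL and 11.69 and 11.67 in ES-EP, a difference of 0.46 ± 0.08 (adjusted p = 0.00242). Ndufa4l2, a relative known to be induced by hypoxia, read 6.33 and 6.35 against 6.01 and 5.93 (0.37, adjusted p = 0.00753 in limma, lost without ES-EP B). Its level was not told from background either. Cox5a, at 9.93 and 9.97 against 10.06 and 10.04, gave -0.10 (-0.29 to 0.09). Cox5b, at 11.78 and 11.83 against 11.81 and 11.80, gave 0.00 (-0.19 to 0.19), and Cox6c gave 0.02, and neither passed. Over the 10 common forms, 3 were higher, 4 lower and 3 did not pass, with a median of -0.05. Over the 8 tissue forms, 4 were higher, 3 lower and 1 did not pass, with a median of 0.08.

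**Figure D4:**
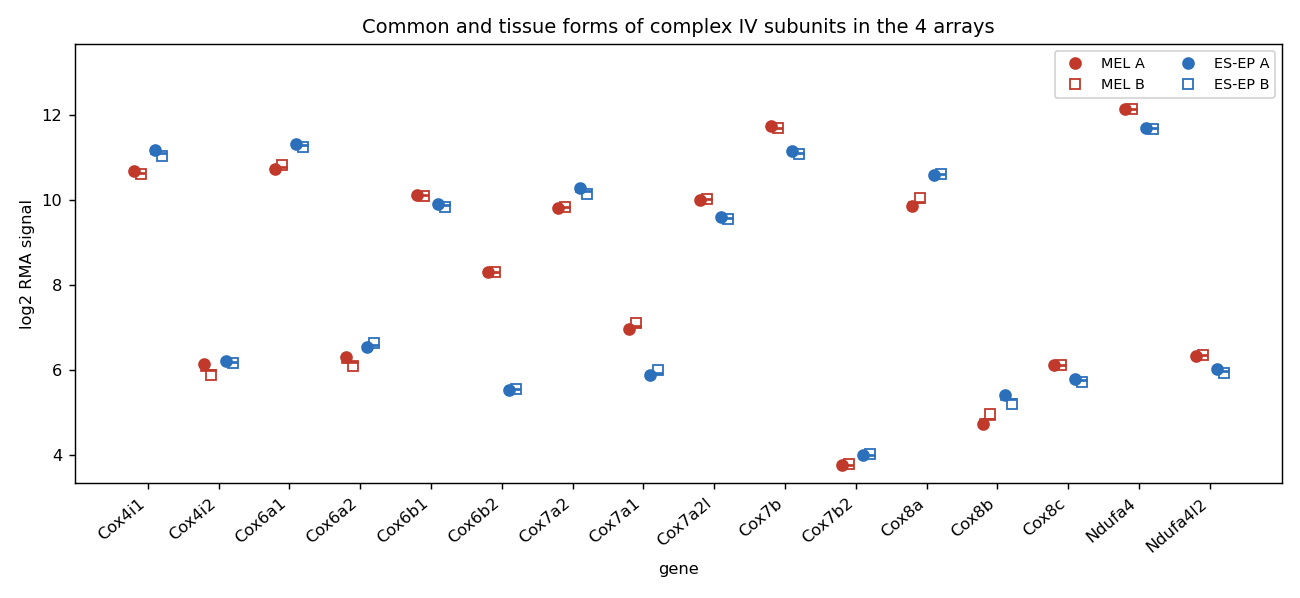
Log2 RMA signal (vertical axis) of the common and tissue forms of complex IV subunits in each of the 4 arrays. Red marks MEL, blue ES-EP, circles culture A, squares culture B and short lines the group means. Cox6b2 and Cox7a1 are clearly higher in MEL (2.76 and 1.09), while Cox6a1, Cox8a and Cox4i1 are lower (-0.51, -0.65 and -0.46); heights of different genes come from different probes and are not comparable.

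Complex V, the ATP synthase, was nearly level in its catalytic head and divided in its membrane part. Of its 17 genes, 4 were higher, 5 were lower and 8 did not pass, with a median of 0.06. The shares were 23.5% higher and 29.4% lower, beside 21.8% and 36.9% of all genes. Under quantile and loess scaling 6 were higher and 4 lower. Atp5a1, the alpha subunit, read 12.71 and 12.74 in MEL and 12.66 and 12.63 in ES-EP, a difference of 0.08 (95% interval -0.11 to 0.27). Atp5b, the catalytic beta subunit, read 12.87 and 12.91 against 12.77 and 12.80, a difference of 0.11 (-0.08 to 0.30). Neither passed, and neither interval reached 1.5-fold. Of the central stalk, the gamma gene Atp5c1 (0.12) and the delta gene Atp5d (0.06) did not pass, and Atp5c1 passed as higher under quantile and loess scaling. Atp5e, the epsilon subunit, read 9.04 and 9.05 in MEL and 8.72 and 8.61 in ES-EP and was higher by 0.37 ± 0.09 (adjusted p = 0.00783, lost without ES-EP B).

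The largest ATP synthase differences were in small subunits of the membrane part. Atp5mpl, a small proteolipid associated with the enzyme, read 10.23 and 10.27 in MEL and 11.28 and 11.23 in ES-EP. The difference was -1.01 ± 0.08, 2.01-fold lower (adjusted p = 5.13e-05), and fell short of 2-fold under quantile (-0.87), centring (-0.94) and loess (-0.89) scaling. Atp5l, subunit g, read 9.34 and 9.40 in MEL against 10.37 and 10.22 in ES-EP, a difference of -0.92 ± 0.09 or 1.89-fold lower (adjusted p = 0.000145). The 6 features annotated to Atp5l were all lower, from -0.76 to -1.02. Atp5md, a small subunit known to join the synthase into dimers, went the other way at 11.78 and 11.89 against 11.54 and 11.46 (0.33 ± 0.09, adjusted p = 0.0143, lost without ES-EP B). Of the remaining small membrane subunits, Atp5j2 was at 0.23 and passed, with an adjusted p of 0.0458 that was lost when any 1 culture was left out, and Atp5k was at -0.20 and did not.

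The ring of c subunits, which turns as protons pass, is encoded by 3 genes with the same mature protein, and they differed unequally between the lines. Atp5g1 read 9.69 and 9.81 in MEL and 10.26 and 10.19 in ES-EP, a difference of -0.47 ± 0.09 (adjusted p = 0.00325). Atp5g3 read 11.28 and 11.31 against 11.80 and 11.81, a difference of -0.51 ± 0.08 (adjusted p = 0.00144). Atp5g2 read 11.31 and 11.36 against 11.15 and 11.10 and was on the other side, at 0.21 (0.01 to 0.40, adjusted p = 0.0658), and passed as higher under quantile and loess scaling. The intervals of Atp5g1 (-0.68 to -0.27) and Atp5g3 (-0.70 to -0.32) did not meet that of Atp5g2, and the contrast between the genes was not tested. In the peripheral stalk, Atp5j was higher (0.33), Atp5pb lower (-0.28, lost under the other scalings and without ES-EP A or ES-EP B) and Atp5h (-0.16) and Atp5o (-0.05) did not pass. The 4 higher calls of complex V (Atp5e, Atp5md, Atp5j and Atp5j2) were each lost without ES-EP culture B.

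The assembly factors of complexes I, II and IV and of ATP synthase held more lower than higher genes in MEL, and those of complex III did not. All genes were divided in the same direction as deposited, with 36.9% lower and 21.8% higher, and in the other direction after cyclic loess, with 24.1% and 29.9%. Of 16 measured assembly factors of complex I, 2 were higher, 10 lower and 4 did not pass, with a median of -0.31 (6 lower after cyclic loess). The largest passing difference in each direction was that of Ndufaf2, which joins a late assembly intermediate, at -1.14 ± 0.09 (adjusted p = 4.59e-05), and that of Timmdc1, a membrane-arm assembly factor, at 0.43 ± 0.08. Of the 4 factors of complex II, 3 were lower and 1 higher. Sdhaf4, which binds Sdha before assembly, read 6.08 and 6.38 in MEL against 7.89 and 7.79 in ES-EP (-1.61 ± 0.12, adjusted p = 2.87e-05), while Sdhaf2, which helps Sdha to take up its flavin, was at 0.38 ± 0.09 and did not pass without ES-EP A. The 2 factors, both known partners of Sdha, thus differed in opposite directions. Of 6 factors of complex III, 3 were higher and 2 lower, from Uqcc1 (1.01 ± 0.08) to Ttc19 (-0.33 ± 0.08), and Ttc19 did not pass after centring or without ES-EP A or ES-EP B.

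In the list for complex IV, 5 of 20 measured genes were higher and 10 lower, with a median of -0.23. Hccs read 10.49 and 10.58 in MEL and 9.32 and 9.36 in ES-EP (1.19 ± 0.08, adjusted p = 2.45e-05 in limma). It attaches heme to cytochromes c and c1 and so is not strictly a complex IV factor. The next highest was Cox14 (0.45 ± 0.09), and Coa5 was furthest the other way (-1.11 ± 0.09). Of 5 factors of ATP synthase, 1 was higher (Atpaf1, 0.54 ± 0.09, which chaperones the beta subunit) and 3 lower, led by Tmem70 (-0.75 ± 0.10), with a median of -0.60. Subunits and partners outside the name series gave 2 higher and 3 lower of 6 measured. Higd1a, a complex IV partner induced by hypoxia, was at 1.00 ± 0.08, and Ndufab1, the acyl carrier protein of complex I, at -0.49 ± 0.08. The 13 genes of the mitochondrial genome were not analysed here.

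Genes that feed electrons to the chain differed in both directions. Of 25 measured genes of the citric acid cycle and pyruvate dehydrogenase, 10 were higher, 6 lower and 9 did not pass, with a median of 0.07, where 21.8% of all genes were higher and 36.9% lower. Pdk3, a kinase that restrains pyruvate dehydrogenase, was highest at 1.27 ± 0.09 (adjusted p = 2.66e-05), and Pcx, pyruvate carboxylase, read 8.02 and 8.14 in MEL against 9.73 and 9.74 in ES-EP (-1.66 ± 0.09, adjusted p = 5.43e-06). Of 17 genes of ubiquinone synthesis and electron entry, 6 were higher and 8 lower. Prodh, proline dehydrogenase, which passes electrons to ubiquinone, was at 2.26 ± 0.09 (adjusted p = 1.43e-06), and Coq2, an early enzyme of ubiquinone synthesis, at -1.25 ± 0.08 (adjusted p = 1.89e-05).

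Regulators were divided as well. Of 21 measured regulators of mitochondrial biogenesis, 7 were higher, 5 lower and 9 did not pass, with a median of -0.15 beside -0.14 for all genes. Among all genes 21.8% were higher and 36.9% lower. The largest differences were in the partner subunits of the ETS factor GABP, with Gabpb2 at 1.03 ± 0.09 (adjusted p = 7.8e-05) and Gabpb1 at -0.97 ± 0.09 (adjusted p = 0.000117). Of 17 genes in a hypoxia list, only some of which act on mitochondria, 7 were higher, 3 lower and 7 did not pass. The list median was -0.12, close to that of all genes (-0.14). Bnip3, a mitophagy receptor, read 11.47 and 11.50 in MEL and 8.76 and 8.82 in ES-EP (2.70 ± 0.08, adjusted p = 4.53e-07). Egln3, an oxygen sensor, read 4.58 and 4.84 in MEL and 7.52 and 7.28 in ES-EP (-2.69 ± 0.12, adjusted p = 3.02e-06). This list shares Ndufa4l2 and Cox4i2 with the members and Pdk1 and Higd1a with the lists above.

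**Figure D5:**
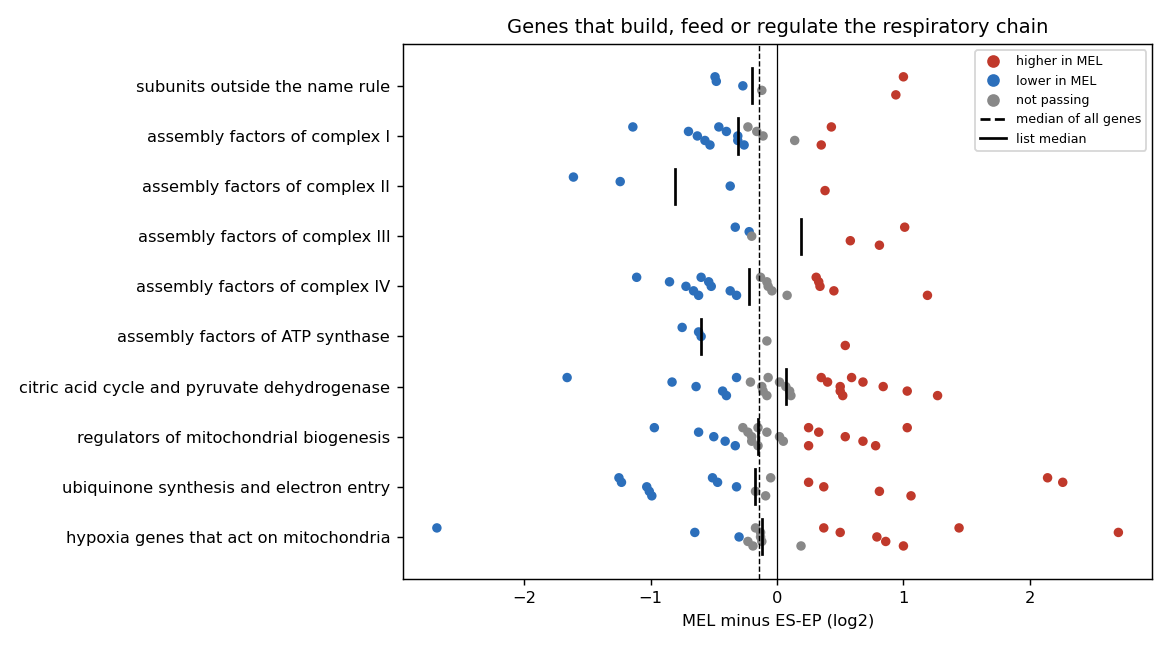
Difference (MEL minus ES-EP, log2, horizontal axis) of each measured gene in 10 lists related to the respiratory chain, 1 row per list. Red genes passed as higher in MEL, blue as lower and grey did not pass, short black lines are list medians and the dashed line is the median of all genes (-0.14). The assembly factors of complexes I, II and V lie mostly to the left (medians -0.31, -0.81 and -0.60).

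The arrays of a group correlated at 0.997 (MEL) and 0.998 (ES-EP) over the tested features and those of different groups at 0.948 to 0.949. All 9 measured erythroid markers were above the arrays' medians in each array. Of these, 7 were lower and 2 higher in MEL, with a summed level of 97.1 to 97.6 against 107 in both ES-EP arrays. Slc4a1, the red cell anion exchanger, was furthest apart (6.98 and 7.10 against 12.45 and 12.51). Of 5 megakaryocyte markers, 3 were higher in MEL: Pf4 (4.38), Itga2b (2.22) and Ppbp (0.67). Ppbp lay below the arrays' medians in each array, and Gp9 (-0.06) and Vwf (0.06) did not pass. The summed level, at most 35.4 in MEL and 28.1 in ES-EP, thus rested mainly on Pf4 and Itga2b. Of 7 mast cell and basophil markers, 6 were lower in MEL, with a summed level of 31.1 to 31.5 against 37.9 to 38.2. Ms4a2 alone was at -3.52, and 5 of the 7 lay below the arrays' medians in each array. In the myeloid (10 genes), lymphoid (7), pluripotent (6) and stromal (6) lists, 1, 1, 2 and 1 were higher and 4 in each were lower as deposited. In that order, 8, 6, 5 and 2 of their genes lay below the arrays' medians in each array. Among all genes 21.8% were higher and 36.9% lower. The part of cell makeup or maturity in the subunit differences was not tested, and in bulk RNA fewer cells of a type and less RNA per cell cannot be told apart.

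Several features tempered single values. Of the 16 genes with more than 1 feature, 14 had features of 1 sign (the exceptions were Uqcrb and Cox5b) and 11 had the same call in each feature. By the RefSeq gene table, 25 of the 82 genes overlap another gene, such as Ndufa4l2 with Shmt2 and Atp5j with Gabpa. Cox6b2, Ndufs5, Cox7a1, Ndufb5, Sdha and Atp5mpl do not. Features of a gene may lie in near-identical copies of it elsewhere in the genome, which was not tested. When 1 culture was left out, 11 of the 22 higher genes and 18 of the 28 lower genes passed whichever culture it was. Without ES-EP culture A or B fewer members passed as higher. Fewer of all genes did too, but the share of higher genes fell more steeply in the members.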

How the data were processed

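Total RNA of 2 MEL and 2 ES-EP cultures was biotin labelled and hybridised to Affymetrix arrays. The values that the authors deposited were summarised with RMA, a robust average over the probes of a feature (submitters' processing notes), with GeneSpring GX (per the labels). The authors' table thus holds RMA signals on a log2 scale, per the labels for the method and judged by the range of values for the scale. RMA brings the arrays' distributions together, so a change in total RNA per cell cannot be seen, and it compresses differences of dim features. Software version, annotation release and filters: not given in the sources used here.

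The table had 35557 features, of which 6613 control features were left out. Of the 28944 tested features, 21789 had 1 gene symbol, 1621 several and 5534 none in the platform annotation, and 21698 were matched by Entrez identifier to a RefSeq table of GRCm38.p6, used for names, gene order and promoters. Among those with several symbols, 6 had 1 that fits the name series and were not used.

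Groups were compared in limma 3.58.1 (R 4.3.3) with lmFit and eBayes, with Benjamini-Hochberg adjustment over the 28944 features and no fold criterion. Residual degrees of freedom were 2, and the prior added 5.15. With 4 arrays, exact permutation could not reach a two-sided p below 0.333. The p-values therefore lean on variances pooled over features, and the number of arrays limits the precision. Standard errors and 95% intervals are those of the moderated fit. The procedure was tested on simulated data with known changes.

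The members and lists were chosen with earlier results of these data known, and the structural groups within complexes were assigned after values were seen. Named in full were the 2 largest passing differences each way in a complex, a set of core genes and the paired forms, and in each related list the largest passing difference each way. Motifs were searched on both strands.

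Alternatives were quantile normalization, centring on array medians, cyclic loess, a trended or robust prior, dim features left out, controls included, features of 1 gene only, a block for the replicate letters, a 1.5-fold or 2-fold criterion, the mean of a gene's features, platform symbols in the rule, and each culture left out. The letters A and B were not treated as pairs: the deviations of same-letter arrays from their group means correlated at 0.110 over features, from 2 pairs, and no label says what the letters share.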

Additional observations from a re-analysis of the deposited data

How the results depend on the processing

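No member called in 1 direction was called in the other under any alternative. The balance of calls did change, from 22 higher and 28 lower as deposited to 32 and 21 under quantile normalization. With 2 arrays per group, differences of the size most members showed (under 1.5-fold) sat near the limit of detection, and dim features near the floor are compressed. Of the 50 member calls, 42 were kept under quantile normalization, 43 under centring, 42 under cyclic loess, 43 with controls included, 48 with the replicate block and all 50 under either other prior, with features of 1 gene only and with the mean of a gene's features. With dim features left out, 48 were kept and 2 members (Cox7b2 and Cox8b) were not in the fit. With the replicate block, 21 members were higher and 27 lower (Atp5j2, adjusted p = 0.0514, and Ndufa6, 0.053, were lost), beside 4383 and 7514 of all genes.

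A fold criterion left fewer members: 8 higher and 7 lower at 1.5-fold, and 3 and 1 at 2-fold. Over all genes, counts of 4339 higher and 7350 lower became 2596 and 2899 at 1.5-fold and 1472 and 982 at 2-fold. Lower genes were 4806 after cyclic loess and 3951 with dim features left out, where fewer genes were tested. Median differences after quantile normalization, centring and loess were 0.07, 0.04 and 0.09 for all members, -0.02, -0.08 and -0.02 for complex I, 0.36, 0.27 and 0.33 for complex II, 0.06, 0.10 and 0.14 for complex III, 0.08, 0.07 and 0.11 for complex IV, 0.12, 0.12 and 0.17 for complex V and -0.02, -0.07 and 0.03 for all genes (-0.05 with dim features left out).

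Leaving out 1 culture at a time gave 11 to 20 higher members (11 without ES-EP B) and 19 to 24 lower. The medians then ran from -0.19 to -0.12 for complex I and from -0.02 to 0.06 for complex III, which was below 0 without MEL B or ES-EP B. Without ES-EP A or ES-EP B, the share of higher genes fell more steeply in the members than in all genes. The cause of these shifts was not tested. A fit without 1 culture assumes that the lone array of its group varies like the other group.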

Other observations

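The nearest measured genes around the 4 members that differed by 2-fold or more were read from the gene order in the RefSeq table, 5 on each side, after the members' values were seen. Kmt5c, which lies next to Cox6b2 and encodes a histone H4 methyltransferase, read 10.92 and 10.94 in MEL and 8.52 and 8.60 in ES-EP. Its difference of 2.37 ± 0.08 (adjusted p = 8.65e-07 in limma) is near that of Cox6b2 itself (2.76). Of the 10 genes around Cox6b2, 1 was higher, 5 lower and 4 did not pass, and the neighbour on the other side, Fam71e2, was at -0.46.

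Around Cox7a1, 6 of 10 neighbours were higher, 0 lower and 4 did not pass, beside 21.8% higher over all genes. The largest was Tbcb, a tubulin folding cofactor, at 10.16 and 10.24 in MEL against 7.97 and 8.07 in ES-EP (2.18 ± 0.09, adjusted p = 1.55e-06). Capns1, the small calpain subunit next to Cox7a1, was at 0.80 ± 0.08. Around Ndufs5, 1 was higher (Macf1, 0.79 ± 0.11), 4 lower and 5 did not pass. Around Atp5mpl, which was lower in MEL, 4 neighbours were higher, 4 lower and 2 did not pass. The genes on either side were higher, with Tdrd9 at 2.52 ± 0.08 and Ppp1r13b at 2.32 ± 0.11, and Coa8, the fifth gene on one side, was lower at -1.02 ± 0.09. Whether these neighbours share anything with the members was not tested.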
